A study of Homo sapiens with 60 samples.

Results

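The water extracts of 2 herbal formulas, Soyo-san and Okbyeongpung-san, were compared at the same labelled dose and time in HepG2 cells, a human hepatocellular carcinoma line. Each formula had 3 RNA-seq libraries at 500 µg/mL after 24 h, so 6 of the 60 libraries in the series enter this comparison, and it was made over all genes. Every library of both formulas carried the same label for cell line and time, and at 500 µg/mL the treatment labels of the groups differed in the extract alone. The same formulas were also given at 100 and 20 µg/mL, with 3 libraries each, and the vehicle had 3. The labels give the vehicle as 0.1% DMSO and the series text as 2%; that text also says that an extract with an IC20 (the concentration inhibiting 20%) under 500 µg/mL was dosed at its IC20, while the labels of both formulas give 500, 100 and 20 µg/mL, which are used here. HepG2 is a single transformed line that keeps many liver genes but expresses few drug-metabolising enzymes at the level of liver. The labels do not say that replicates came from separate cultures. The p-values measure the spread between replicate libraries, pooled over 57 libraries in 19 groups of the series. That spread may be technical. Soyo-san is a traditional mixture that classically includes mint herb, and Okbyeongpung-san one that classically includes Saposhnikovia root; the labels give no recipe or chemical analysis of either.

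As background, hepatocytes make hepcidin, the peptide hormone encoded by HAMP that blocks iron export, and they switch HAMP on through bone morphogenetic protein (BMP) signalling to SMAD proteins, which also drive the ID and inhibitory SMAD genes. Metallothioneins are small cysteine-rich proteins that bind zinc and copper, and their genes follow free zinc through the factor MTF1. CYP1A1 is a cytochrome P450 that is switched on by the aryl hydrocarbon receptor (AHR), a receptor for many plant compounds.

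The 6 libraries held 23132364 to 29404937 counts, with a median of 25322620. Mitochondrial genes took 10.4% to 13.8% of the counts, and the highest share was in Soyo-san 500 replicate 3. Without that library the comparison below called 904 genes, within the 865 to 953 called when any 1 of the 6 was left out. Between replicates within each formula and dose group, log2 levels correlated at 0.9886 to 0.9918 across genes. No pair of libraries was identical, and replicates differed by more than sampling noise. In a principal component analysis of the 18 formula libraries, the first component held 10.5% of the variance. The 3 Soyo-san 500 libraries lay at 16.21, 17.61 and 27.38 on it, and the other 15 lay between -20.45 and 4.61. It also spread replicates of 1 group: Okbyeongpung-san 20 lay at 0.59, 3.71 and -19.76, and Okbyeongpung-san 100 at -7.94, -14.74 and -20.45.

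At 500 µg/mL, 1247 of 16644 genes tested differed between the formulas (edgeR quasi-likelihood test, Benjamini-Hochberg adjusted p under 0.05), which is 7.49% of the genes tested. With Soyo-san 719 of them were higher (4.32%) and 528 lower (3.17%). Most differences were small: the median size was 0.30 on the log2 scale among these genes and 0.10 over all genes tested. A difference of at least 2-fold was seen in 46 genes, 29 higher and 17 lower with Soyo-san. Of the 1247 genes, 1236 had all 3 Soyo-san libraries on one side of all 3 Okbyeongpung-san libraries, against 28.8% of all genes tested. Levels below are CPM, counts scaled to an equal total in every library, and folds are Soyo-san over Okbyeongpung-san.

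**Figure D1:**
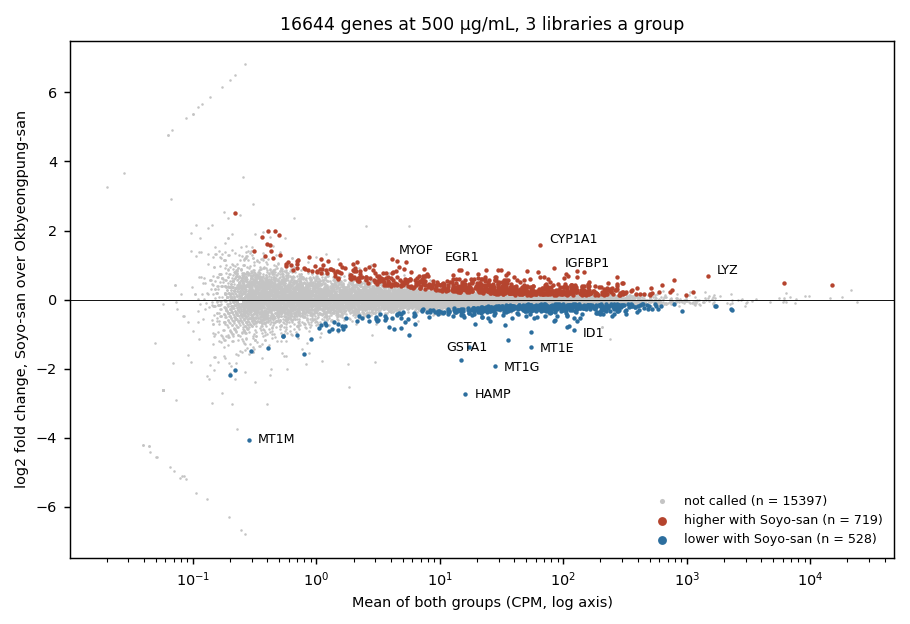
Log2 fold change of Soyo-san over Okbyeongpung-san at 500 µg/mL against the mean level in CPM (log axis), 1 point a gene, 3 libraries a group. Of 16644 genes, 719 were higher with Soyo-san (red), 528 were lower (blue) and the rest were not called (grey); CYP1A1 lies highest among the labelled genes and HAMP and the metallothioneins lie lowest.

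HAMP had the largest difference of all genes lower with Soyo-san and at 5 CPM or more in either group. Its level was 4.15, 4.24 and 4.17 CPM in the 3 Soyo-san libraries and 28.1, 27.0 and 29.2 CPM in the 3 Okbyeongpung-san libraries. The groups did not overlap, and each was tight: 4.19 ± 0.0481 against 28.1 ± 1.10 CPM (SD, n = 3 each). The log2 fold change was -2.74 with a standard error of 0.15 and an edgeR adjusted p of 7.9e-18, so the level was 6.69-fold higher with Okbyeongpung-san. The vehicle mean was 26.0 ± 1.39 CPM (SD, n = 3), close to the Okbyeongpung-san libraries. HAMP lies on chromosome 19 at 35280716 to 35285143 in GRCh38.

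The HAMP promoter is shown because HAMP had that largest difference. It is the RefSeq window of GRCh38.p14 from 250 bases before to 50 after the start, chr19:35282278-35282577, plus strand, with positions counted from the start as 0. Capitals mark a GGCGCC, the core of a BMP response element, at -105 and a match to TTCNNNGAA, the STAT palindrome, at -93.
HAMP: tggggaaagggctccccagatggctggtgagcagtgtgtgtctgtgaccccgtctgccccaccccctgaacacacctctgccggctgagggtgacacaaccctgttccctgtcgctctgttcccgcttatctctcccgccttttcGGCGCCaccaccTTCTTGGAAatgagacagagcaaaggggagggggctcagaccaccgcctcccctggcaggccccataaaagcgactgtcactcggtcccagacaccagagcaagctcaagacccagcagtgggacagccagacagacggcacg
Searched on both strands, GGCGCC is found in 19.2% of the 35116 windows of this length in the table and TTCNNNGAA in 7.66%, and the capitals do not overlap. The ID1 window holds no GGCGCC, which says only that these letters are not in those bases.

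Several other genes that BMP and SMAD signalling is known to drive were also lower with Soyo-san. ID3 had 35, 39.1 and 37.5 CPM against 75.2, 68.6 and 71.8 CPM, a log2 fold change of -0.95 (SE 0.12, adjusted p 9.55e-08, edgeR). ID1 had 79.2, 90.2 and 88.9 CPM against 153.9, 155.3 and 167.7 CPM, a log2 fold change of -0.88 (SE 0.08, adjusted p 3.5e-11, edgeR). ID proteins bind basic helix-loop-helix factors and keep them off DNA. ID2 (-0.80) was lower as well, as were SMAD7 (-0.70) and SMAD6 (-0.45), inhibitory SMADs that feed back on the pathway. None of these genes overlapped between the groups, and neither did 28.8% of all genes tested. Of 17 iron and hepcidin genes tested, 6 were lower and 2 higher, beside 3.17% lower and 4.32% higher over all genes tested. The list's median log2 fold change was -0.097 against -0.008 over all genes. The 2 higher members were ACVR1, a BMP type I receptor (0.35), and SLC40A1, which encodes the iron exporter ferroportin (0.16). TFRC, the transferrin receptor, had 448.3 to 474.0 CPM against 404.4 to 421.9 CPM and was not called (log2 0.17, adjusted p 0.115, edgeR).

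Metallothionein genes of the chromosome 16 cluster also had large differences: 6 of 7 tested were lower with Soyo-san, against 3.17% of all genes. MT1A (-0.38) was not called (adjusted p 0.404, edgeR). MT1G, at 56666731 to 56668065 in GRCh38, had 13, 10.8 and 11.5 CPM against 46.2, 40.6 and 46.1 CPM. Its log2 fold change was -1.91 (SE 0.16, adjusted p 1.98e-11, edgeR), a 3.76-fold difference. MT1F followed at -1.74, MT1E at -1.37, MT1X at -1.37 and MT2A at -0.76. MT2A, the most abundant of them, had 82.6, 78.2 and 86.3 CPM against 148.3, 128.2 and 142.6 CPM, with no overlap.

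MT1M was near the limit of detection. It had 2 counts summed over the Soyo-san libraries and 44 over the Okbyeongpung-san libraries, a ratio of 19.4 in favour of Okbyeongpung-san with a 95% exact interval of 5.06 to 165 that covers counting error only. The metallothionein and zinc list had 11 members tested, 8 lower and 1 higher, beside 3.17% and 4.32% of all genes. Its median log2 fold change was -0.76. The exception was SLC39A10, a zinc importer, at 25.2, 25.0 and 23.8 CPM against 15.4, 15.9 and 17.0 CPM (log2 0.62), and SLC30A10, a manganese exporter, was lower (-0.34). The members are near-identical copies of each other, and the authors' counting shared ambiguous reads among them, so the split between single MT1 genes is less certain than their sum. Summed over the family, the level was 147.2, 136.1 and 142.8 CPM with Soyo-san and 329.5, 286.3 and 320.7 CPM with Okbyeongpung-san.

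At lower doses the sums did not separate: Soyo-san had 330.1 ± 13 CPM at 100 and 403.1 ± 34.6 at 20 µg/mL, and Okbyeongpung-san 346.2 ± 68.8 and 406.6 ± 97.8 (SD, n = 3 each). Okbyeongpung-san 20 replicate 3 stood at 293.7 CPM, below the 466.7 and 459.4 CPM of its group. The promoters of MT1X and MT2A are shown because metal response elements (MRE), where MTF1 binds, are dense there. Capitals mark TGCACNC or TGCGCNC on either strand in the RefSeq GRCh38.p14 windows, chr16:56682220-56682519 for MT1X and chr16:56608334-56608633 for MT2A, both plus strand.
MT1X: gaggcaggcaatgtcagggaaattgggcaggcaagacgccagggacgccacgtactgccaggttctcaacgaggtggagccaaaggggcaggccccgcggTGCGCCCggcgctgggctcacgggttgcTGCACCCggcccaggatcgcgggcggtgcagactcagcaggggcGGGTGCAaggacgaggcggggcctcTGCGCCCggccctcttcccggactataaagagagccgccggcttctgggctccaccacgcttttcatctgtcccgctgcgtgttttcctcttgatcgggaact
MT2A: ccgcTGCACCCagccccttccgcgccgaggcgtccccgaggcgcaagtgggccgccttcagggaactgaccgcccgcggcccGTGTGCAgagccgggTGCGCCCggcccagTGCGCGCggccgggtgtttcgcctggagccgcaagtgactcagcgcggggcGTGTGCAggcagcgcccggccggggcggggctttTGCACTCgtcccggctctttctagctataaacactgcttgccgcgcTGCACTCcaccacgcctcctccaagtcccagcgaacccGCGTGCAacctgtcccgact
MT1X holds 4 matches and MT2A 8. At least 1 match is found in 29.6% of all windows and 4 or more in 0.601%. MT1E, MT1F and MT1G are not in the table used.

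CYP1A1 had the largest difference of all genes higher with Soyo-san and at 5 CPM or more in either group. It stood at 97.7, 99.1 and 97.6 CPM with Soyo-san and 33.1, 33.6 and 31.1 CPM with Okbyeongpung-san, a 3.01-fold difference (log2 1.59, SE 0.06, adjusted p 2.17e-27, edgeR). Both formulas were above the vehicle mean of 7.75 ± 0.71 CPM (SD, n = 3), so CYP1A1 differed in degree. The gene lies on chromosome 15 at 74719542 to 74725610 in GRCh38, and its promoter is printed to show the receptor's core motif, GCGTG, in capitals at -57. The window is chr15:74725479-74725778, minus strand, RefSeq GRCh38.p14.
CYP1A1: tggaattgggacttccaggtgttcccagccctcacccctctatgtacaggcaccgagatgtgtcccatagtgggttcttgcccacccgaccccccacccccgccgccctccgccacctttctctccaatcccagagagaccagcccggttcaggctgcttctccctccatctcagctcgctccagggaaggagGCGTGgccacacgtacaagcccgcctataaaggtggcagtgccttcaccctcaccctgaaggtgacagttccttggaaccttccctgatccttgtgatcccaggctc
GCGTG occurs in 36.5% of all windows, so a match is common. Of 8 AHR list members tested, 2 were higher, CYP1A1 and NQO1, and 1 lower, beside 4.32% and 3.17% of all genes. With the 6 libraries fitted alone or a replicate block set within the first number of the sample code, 3 were higher and 2 lower. NQO1, a quinone reductase also under NRF2, was higher by a log2 of 0.17 (529.5 to 548.4 against 472.4 to 481.7 CPM, adjusted p 0.0115, edgeR), a call that was lost without a filter on low counts (adjusted p 0.0668). NFE2L2, the gene for NRF2 itself, was lower (-0.30). ALDH3A1, an aldehyde dehydrogenase, had 1.87 to 2.35 against 1.04 to 1.79 CPM and missed the threshold (adjusted p 0.0584, edgeR).

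NRF2 targets, the antioxidant and conjugation genes, were split between the formulas. Of 29 tested, 5 were higher and 5 lower with Soyo-san, beside 4.32% and 3.17% of all genes. The median log2 fold change of the 29 was -0.016. SLC7A11, the cystine importer, was higher (0.57), as were ABCC2, an efflux pump (0.28), SQSTM1, an autophagy receptor (0.28), and AKR1B10, an aldo-keto reductase (0.27). AKR1C2, a related reductase, was lower (-0.49): it had 205.4, 202.7 and 213.3 CPM against 293.4, 287.7 and 290.0 CPM. The vehicle mean for AKR1C2 was 206.6 CPM. HMOX1, haem oxygenase, was lower by 0.21 on the log2 scale (adjusted p 0.0191, edgeR), a call that was lost without any 1 of the 6 libraries (adjusted p 0.0563 to 0.101).

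GSTA1 and GSTA2, glutathione transferases of the alpha class that conjugate electrophiles in liver, were lower with Soyo-san. GSTA1 had 22.1, 21.0 and 22.4 CPM against 46.9, 52.4 and 48.7 CPM (log2 -1.18, SE 0.10, adjusted p 4.19e-12, edgeR). GSTA2, its near-identical neighbour, had a log2 fold change of -1.02, and reads could have been shared between the pair. Of 10 drug-metabolism genes under the receptors PXR and CAR, 3 were higher and 1 lower, beside 4.32% and 3.17% of all genes. The higher genes included CYP3A5 (0.50) and the efflux pump ABCB1 (0.26), and the sulfotransferase SULT2A1 (-0.49) was lower. The CYP3A5 call was lost without Soyo-san 500 replicate 3 (adjusted p 0.0752). CYP3A4 did not pass the filter on low counts and was not tested, and none of 7 UDP-glucuronosyltransferases was called by edgeR (1 had an unadjusted p under 0.05, and 1 was called by DESeq2 and in 6 other alternatives).

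**Figure D2:**
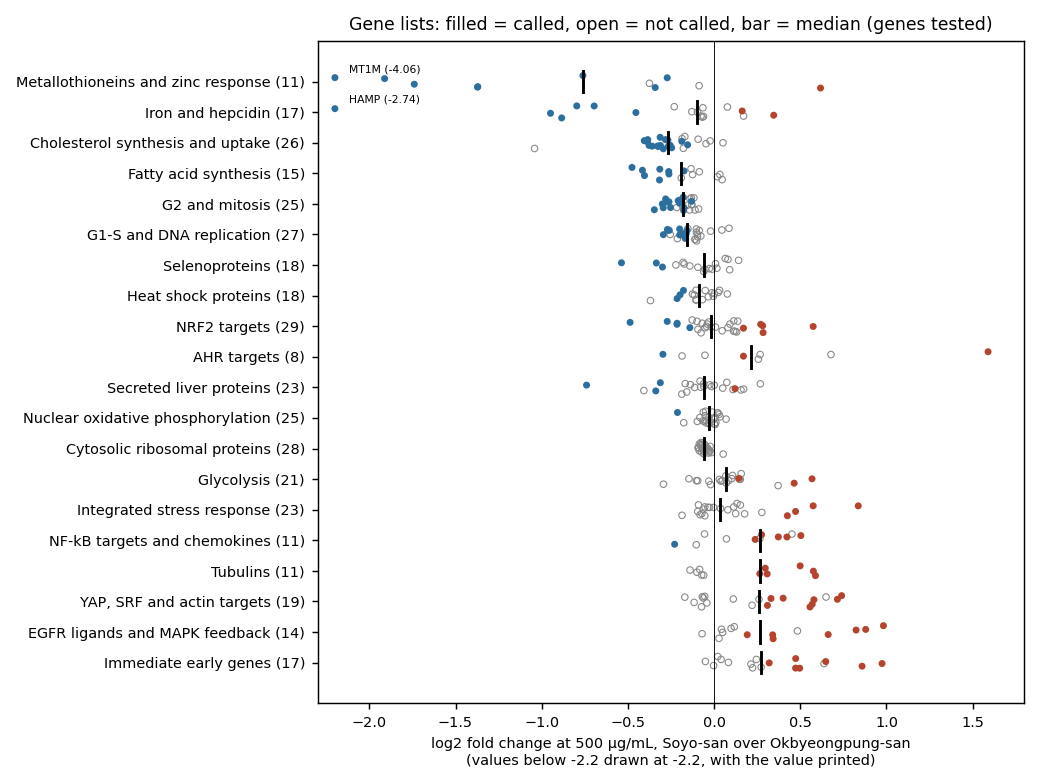
Log2 fold change at 500 µg/mL of the members of 20 gene lists, with the number of genes tested in brackets, 1 point a gene; filled points were called, open points were not, and bars are medians. Cholesterol synthesis (18 of 26 called, all lower) and mitosis genes (14 of 25, all lower) lie left of 0. The calls among tubulins (6 of 11) and EGFR ligands and feedback genes (7 of 14) lie right of 0. Over all genes tested 7.49% were called.

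The sterol list held small differences, and those called were lower with Soyo-san. Of 26 cholesterol genes tested, 18 were lower and none was higher, with a median log2 fold change of -0.267; 3.17% of all genes were lower. HMGCS1, which makes the precursor of mevalonate, had 291.5, 282.8 and 263.8 CPM against 377.9, 368.5 and 363.6 CPM (log2 -0.41, SE 0.05, adjusted p 1.05e-07, edgeR). MVD, a decarboxylase of the mevalonate pathway, stood at -0.39. Of 15 fatty acid synthesis genes, 8 were lower and none higher, with a median of -0.191. ACSS2, which makes acetyl-CoA from acetate, was lowest at -0.48 (88.8, 89.3 and 90.5 against 122.6, 124.7 and 126.4 CPM). FADS2, a desaturase, was at -0.42, GPAM, which starts glycerolipid synthesis, at -0.40, and FASN, fatty acid synthase, at -0.32. NPC1, which moves cholesterol out of lysosomes, was higher (0.35), with INSIG2, a brake on sterol synthesis (0.35).

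Genes of fat oxidation showed fewer calls: 3 of 16 were higher, against 4.32% of all genes, and none lower. With the 6 libraries fitted alone 5 were higher. VNN1, a pantetheinase, was at 1.03 but at a low level (2.45 to 2.91 against 1.21 to 1.37 CPM), CPT1A, the carnitine shuttle enzyme, at 0.24, and ACADVL, an acyl-CoA dehydrogenase, at 0.22. The CPT1A call was lost without Okbyeongpung-san 500 replicate 3 (adjusted p 0.0552) or Soyo-san 500 replicate 1 (0.0728).

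About the cell cycle, the genes called in both lists were lower with Soyo-san by small amounts. Of 25 genes of G2 and mitosis, 14 were lower and none higher, with a median of -0.179. All 25 had a negative log2 fold change. Over all genes tested, 3.17% were called lower, and 8693 of 16644 had a negative log2 fold change. KIF20A, a kinesin of cell division, had 66.2, 66.8 and 68.6 CPM against 85.7, 85.5 and 85.2 CPM (log2 -0.35, adjusted p 5.79e-08, edgeR). CDC20, an activator of the anaphase-promoting complex, was at -0.30, and AURKA, a spindle kinase, at -0.20. Without Okbyeongpung-san 500 replicate 1 the count was 9. Of 27 genes of G1-S and replication, 11 were lower and none higher, with a median of -0.157; the helicase subunits MCM4, MCM5 and MCM6 stood at -0.17, -0.20 and -0.20. That count was 4 without Okbyeongpung-san 500 replicate 2 or without Soyo-san 500 replicate 3, 7 without Okbyeongpung-san 500 replicate 1 or Soyo-san 500 replicate 2, and 5 with no filter on low counts. CDKN1A, the inhibitor p21, was higher (0.26), as 1 of 3 higher among 24 p53 targets, beside 4.32% of all genes tested.

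Some immediate early genes were higher with Soyo-san. EGR1, a transcription factor induced within minutes of growth factor signals, had 17.0, 16.7 and 21.6 CPM against 10.6, 9.62 and 10.4 CPM (log2 0.86, SE 0.10, adjusted p 5.64e-09, edgeR). Of 17 immediate early genes, 7 were higher, against 4.32% of all genes, and none lower, with a median of 0.273. Among the 7 were IER3 (0.65), KLF6 (0.50) and JUN (0.47). The IER3 call was lost with the 6 libraries fitted alone (adjusted p 0.0806, edgeR). FOS, a subunit of the AP-1 factor, stood at 0.97 but at under 1 CPM in every library (adjusted p 0.0351, edgeR), and its call was lost in 8 of 13 alternatives. The list's count was 4 without Okbyeongpung-san 500 replicate 1, without Okbyeongpung-san 500 replicate 2 or without Soyo-san 500 replicate 2.

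Of 14 ligands of the EGF receptor and feedback genes of its pathway, 7 were higher with Soyo-san and none lower. Over all genes 4.32% were higher. The list's median was 0.266. AREG, amphiregulin, had 8.86, 10.6 and 9.23 CPM against 5.42, 4.76 and 5.47 CPM (log2 0.88, adjusted p 5.26e-08, edgeR). EREG, epiregulin, was at 0.98 with 1.25 to 1.41 against 0.468 to 0.76 CPM, HBEGF at 0.66 and TGFA at 0.34. DUSP6, a phosphatase that switches off ERK, had 63.0, 63.9 and 66.5 CPM against 32.1, 35.9 and 41.3 CPM (log2 0.82, adjusted p 2.95e-10, edgeR). The count was 4 without Soyo-san 500 replicate 3, and the EREG call was lost without Okbyeongpung-san 500 replicate 1 (adjusted p 0.0934) and with no filter on low counts (0.0603).

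Targets of YAP and of the serum response factor, which include genes of the actin skeleton, had 8 of 19 higher and none lower. Their median was 0.26. For this and the next lists, 4.32% of all genes tested were higher and 3.17% lower. CCN1, a matricellular protein, had 15, 15.5 and 17.3 CPM against 9.09, 9.08 and 11 CPM (log2 0.72, SE 0.09, adjusted p 8.27e-08, edgeR). TAGLN, an actin-binding protein, was at 0.58. Of 11 tubulins, 6 were higher and none lower, led by TUBB6 (0.59), TUBA1A (0.58) and TUBA4A (0.50), which build microtubules; the TUBA4A call was lost without Okbyeongpung-san 500 replicate 2 (adjusted p 0.0538) or Soyo-san 500 replicate 3 (0.0813). NF-kB targets had 5 of 11 higher, among them ICAM1, an adhesion molecule (0.42), and 1 lower, NFKBIA, the inhibitor of the pathway (-0.23). Their count of 6 was 3 without Okbyeongpung-san 500 replicate 1, Soyo-san 500 replicate 2 or Soyo-san 500 replicate 3.

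Several other single genes had higher levels, and not all of them lay outside the lists: GDF15 was 1 of the 3 higher p53 targets. L1CAM, a cell adhesion molecule on the X chromosome, had 30.6, 29 and 31.8 CPM against 16.5, 16.2 and 17.5 CPM, a tight 1.82-fold difference (log2 0.86, SE 0.06, adjusted p 1.16e-14, edgeR). MYOF, a membrane repair protein (1.17), AQP3, a water and glycerol channel (1.11), B3GNT3, a glycosyltransferase (0.94), FILIP1L (0.87), CD109, a surface glycoprotein (0.85), and SPINT1, a protease inhibitor (0.82), were higher. CCT8P1, a pseudogene of the chaperonin gene CCT8, was at 0.88, a value that depends on how reads were split with its parent. DEPP1, an autophagy regulator under FOXO, was at 0.85. GDF15, a stress-induced hormone, had 145.2, 167.4 and 181.9 CPM against 84.3, 89.6 and 103.1 CPM (log2 0.84). IGFBP1, an insulin-repressed binding protein made by liver, had 98.0, 105.4 and 124.6 CPM against 44.6, 48.4 and 82.9 CPM (log2 0.90, SE 0.22, adjusted p 0.00509, edgeR). Its call was lost without Okbyeongpung-san 500 replicate 1 (adjusted p 0.062) or replicate 2 (0.0513), which leaves replicate 3 at 82.9 CPM in a group of 2, and when the 6 libraries were fitted alone (0.147). G6PC1, the last enzyme of glucose release and also repressed by insulin, was not called (5.56 to 7.05 against 4.06 to 5.89 CPM, adjusted p 0.27, edgeR). Of 18 genes tested for insulin, FOXO and gluconeogenesis, 4 were higher and none lower, beside 4.32% and 3.17% of all genes. The count was 2 without Okbyeongpung-san 500 replicate 1 or replicate 2.

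Among metabolic and stress lists calls were fewer, beside 4.32% higher and 3.17% lower over all genes tested. SLC2A1, the glucose carrier GLUT1, was higher (913.9, 938.8 and 955.9 against 605.1, 650.9 and 638.5 CPM, log2 0.57), as 1 of 3 higher among 21 glycolysis genes; the count was 1 without Okbyeongpung-san 500 replicate 2 and 5 with the 6 libraries fitted alone. Of 23 genes of the integrated stress response, 4 were higher and none lower, with ASNS, asparagine synthetase, at 0.42. ASNS stood at 28.7 to 30.0 CPM with Soyo-san and 21.8 to 22 CPM with Okbyeongpung-san against a vehicle mean of 31.4 CPM. Of 23 lysosome and autophagy genes 5 were higher, and 8 were with DESeq2 or with the block set by first code number and 9 with the 6 libraries fitted alone. Of 22 amino acid transporters and tRNA synthetases 4 were higher, and 8 higher and 2 lower with the 6 libraries alone. Of 20 ER chaperone genes 1 was higher, a share near that of all genes, and 4 were with the 6 libraries alone and 2 without Soyo-san 500 replicate 2. Of 18 heat shock genes 3 were lower, and 5 with the 6 libraries alone. Of 18 selenoprotein genes 3 were lower, led by the deiodinase DIO1 (-0.54; 20.1 to 20.2 against 28.1 to 31.0 CPM), and the count was 1 without any single library of the comparison other than Soyo-san 500 replicate 3, 5 with the block set by first code number and 6 with the 6 libraries alone.

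Among liver lists, 5 of 10 bile acid genes, 2 of 11 hepatocyte lineage markers and 4 of 23 secreted liver proteins were called, against 7.49% of all genes tested. NR1H4, the bile acid receptor FXR, had 25.6, 25.7 and 24.0 CPM against 41.6, 41.0 and 42.9 CPM (log2 -0.74, SE 0.06, adjusted p 6.22e-14, edgeR). Of the bile acid genes, SLC51B, an exporter under that receptor (-0.63), and CYP27A1, a sterol hydroxylase (-0.20), were lower too, while BAAT, which conjugates bile acids (0.56), and NR0B2, the repressor SHP (0.43), were higher; the count of 5 was 3 without Soyo-san 500 replicate 1, where the SLC51B call was lost (adjusted p 0.0553). SLC22A7, an organic anion carrier, was lower (-0.70). EPN3, an endocytic adaptor (-0.81), and TNFAIP8L3, a lipid carrier (-0.85), were lower as well. CEBPA, a factor that keeps hepatocytes differentiated, had 104.1, 103.4 and 100.1 CPM against 156.8, 161.2 and 153.5 CPM (log2 -0.62). ALB, albumin, had 7164 to 7394 against 7747 to 8015 CPM with no overlap and was not called (adjusted p 0.156, edgeR), though it was with the 6 libraries fitted alone (log2 -0.105, adjusted p 0.00855). The count of hepatocyte lineage markers was 7 in that fit, 4 with the block set by first code number and 1 without Soyo-san 500 replicate 2. Of 23 secreted liver proteins 1 was higher and 3 lower. That count was 2 without Okbyeongpung-san 500 replicate 2 or Soyo-san 500 replicate 2, 7 with the block and 11 with the 6 libraries alone. Neither edgeR nor DESeq2 called a member among 28 ribosomal protein genes, 13 mitochondrial mRNAs and 14 interferon-stimulated genes, of which 0, 0 and 3 had an unadjusted p under 0.05 in edgeR. The ribosomal protein genes still leaned 1 way: 27 were negative at 500 µg/mL (median -0.06) and 27 positive at 100 µg/mL (median 0.104). Of the mitochondrial mRNAs, 10 were positive at 500 µg/mL (median 0.05) and 12 at 100 µg/mL (median 0.21). The cause was not tested. In the alternatives, 1 mitochondrial mRNA was called with no filter, and 1 interferon-stimulated gene without Okbyeongpung-san 500 replicate 3 or Soyo-san 500 replicate 2. Of 25 oxidative phosphorylation genes 1, SDHB, was lower (-0.22), a call lost without Soyo-san 500 replicate 1 or 2 or Okbyeongpung-san 500 replicate 2 or 3.

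Markers of cells other than hepatocytes were low, with LYZ as the exception. The summed hepatocyte markers were 20150 to 20980 CPM with Soyo-san and 21370 to 22030 CPM with Okbyeongpung-san, with 11 of 11 above 1 CPM in both groups. Fibroblast markers summed to 13.7 to 15.2 against 11.2 to 14.0 CPM, with COL1A2, DCN and POSTN at 0 in both groups, and endothelial markers to 4.50 to 5.26 against 4.90 to 6.03 CPM, with KDR and TEK at 0. Leukocyte markers other than LYZ summed to 42.2 to 46.2 against 43.1 to 49.3 CPM, with PTPRC, CD3E and FCGR3A at 0. LYZ, lysozyme, had 1763, 1827 and 1873 CPM against 1090, 1131 and 1187 CPM (log2 0.68, adjusted p 6.6e-13, edgeR). MALAT1, a nuclear RNA whose level differs between sets of libraries in the series, had 464.6 to 471.9 against 401.7 to 468.3 CPM (adjusted p 0.91, edgeR), and 261.1 CPM in vehicle. The vehicle libraries thus differ from the formula libraries in MALAT1, and vehicle levels are given as a description.

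Fewer genes differed at the lower doses. At 100 µg/mL 6 genes differed (0.036% of the genes tested): CYP1A1 (log2 0.82), TAGLN (0.53), UBD, a ubiquitin-like protein (0.42), SERPINE2, a protease inhibitor (0.26), and TPM1, tropomyosin (0.22), were higher and CPLX2 (-0.25) was lower with Soyo-san. The unadjusted p was under 0.05 for 1354 genes. The 6 calls depended on the fit: 1 to 4 were left without 1 library each at that dose, 2 of them were called with the 18 formula libraries and 2 with the 6 libraries of that dose fitted alone, and 228 genes were called with no filter. CYP1A1 was called in 13 of 13 alternatives. At 20 µg/mL no gene differed by edgeR (0% of the genes tested; 381 at an unadjusted p under 0.05), and the smallest adjusted p was 1. DESeq2 called 1 gene there, and edgeR called 74 with no filter and 1 with the 6 libraries of that dose alone. The 100 and 20 µg/mL contrasts use libraries that the 500 contrast does not. Of the 1247 genes called at 500, 1017 (81.6%) had the same sign at 100, against 56.9% of all genes tested, with a correlation of 0.56 across the called genes and 0.06 across all genes, which are not independent replicates. Within the genes called higher, or within those called lower, the correlation was 0.27. At 20, 713 of the 1247 genes (57.2%) had the same sign, against 51.2% of all genes. The correlation there was 0.08 across the called genes and 0.03 across all. Agreement was lower for the 46 genes with at least a 2-fold difference at 500. Of these, 30 (65.2%) had the same sign at 100 and 22 (47.8%) at 20. Most of the 46 lay under 5 CPM in both groups or had no symbol or overlapping groups. Of the 29 that were higher with Soyo-san, only CYP1A1, MYOF and AQP3 had a symbol, 5 CPM or more in either group and no overlap. Whether low levels account for the lower agreement was not tested.

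**Figure D3:**
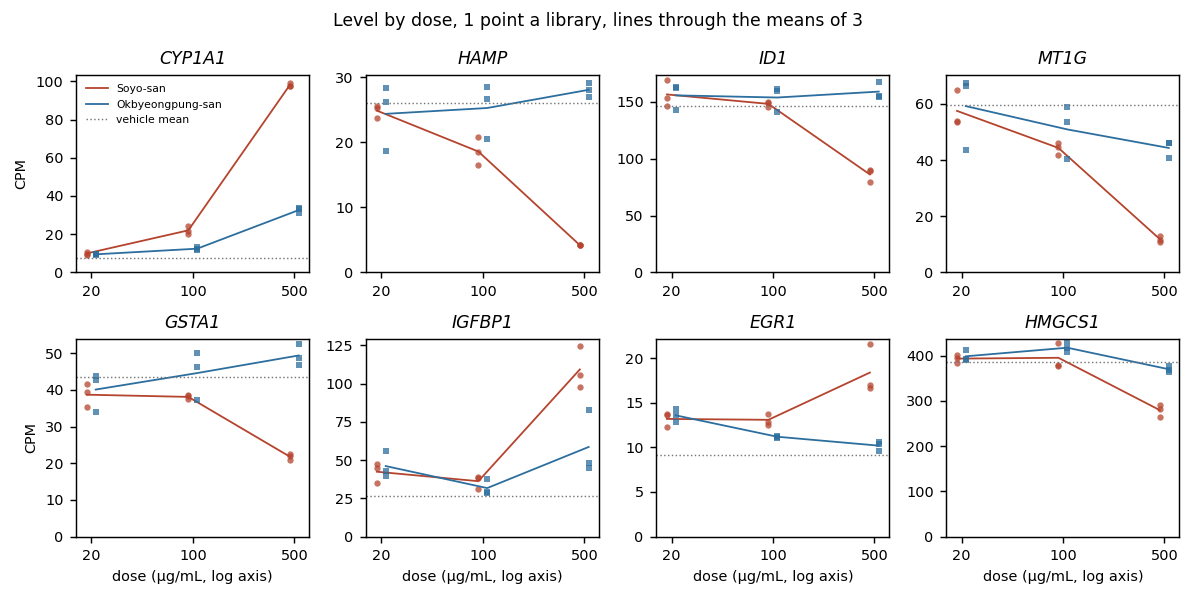
Level in CPM (linear axis from 0) by dose in µg/mL (log axis) for 8 genes; each point is a library, lines join means of 3, red is Soyo-san, blue Okbyeongpung-san and the dotted line the vehicle mean. HAMP falls to 4.19 CPM with Soyo-san at 500 and stays at 28.1 CPM with Okbyeongpung-san, while CYP1A1 is above vehicle with both.

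Each formula's own change from 20 to 500 µg/mL was tested in the same fit. Soyo-san changed 1262 genes (7.58%) and Okbyeongpung-san 4 (0.024%): CYP1A1 (1.79), AKR1B10 (0.42) and AKR1C2 (0.38) rose and ASNS (-0.41) fell. HAMP was at 24.9 ± 1.00 CPM with Soyo-san at 20, 18.6 ± 2.10 at 100 and 4.19 ± 0.0481 at 500 µg/mL (SD, n = 3 each). With Okbyeongpung-san it was at 24.4 ± 5.08, 25.3 ± 4.18 and 28.1 ± 1.10 CPM. CYP1A1 went from 9.92 ± 0.706 to 22 ± 2.17 and 98.1 ± 0.84 CPM with Soyo-san and from 9.44 ± 0.516 to 12.4 ± 0.886 and 32.6 ± 1.35 CPM with Okbyeongpung-san. ID1 stayed at 156.5 ± 11.7 and 148.2 ± 2.10 CPM at 20 and 100 with Soyo-san before it fell to 86.1 ± 6.02 CPM at 500. HMGCS1 was at 393.5 ± 8.16 and 395.3 ± 28.4 CPM and then at 279.4 ± 14.2 CPM. GSTA1 was at 38.7 ± 3.18, 38.1 ± 0.527 and 21.8 ± 0.728 CPM with Soyo-san. The change from 20 to 500 differed between the formulas for 392 genes by the interaction contrast (2.36%), 250 more positive and 142 more negative with Soyo-san.

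The series also holds water extracts of Menthae Herba (mint), a herb of the classical Soyo-san, and Saposhnikoviae Radix, a herb of the classical Okbyeongpung-san, with 3 libraries each at 500 µg/mL. Their contrast, chosen after the data had been seen, shares no library with that of the formulas. It called 5337 of 16644 genes (32.1%). Of the 1247 genes called between the formulas, 1219 (97.8%) had the same sign with mint over Saposhnikovia, against 71.7% of all genes tested, and 1125 were called in that direction and 7 in the other. The correlation was 0.83 across the called genes and 0.24 across all genes. Within the genes called higher it was 0.51, and within those called lower 0.63.

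HAMP was at 0.689 ± 0.201 CPM with mint and 15.5 ± 2.85 CPM with Saposhnikovia (SD, n = 3 each), a log2 fold change of -4.47 (adjusted p 4.57e-21, edgeR). MT1G (-3.41), GSTA1 (-1.96), NR1H4 (-1.58), ID3 (-1.54) and ID1 (-1.51) were lower with mint too, and EGR1 (1.94), SLC7A11 (1.52), DUSP6 (1.17) and LYZ (1.15) were higher. IGFBP1 was at 728.0 ± 41.3 CPM with mint and 48.5 ± 3.73 CPM with Saposhnikovia (log2 3.91). CYP1A1 was the exception among the leading genes: 69.4 ± 4.50 CPM with mint and 80 ± 4.01 CPM with Saposhnikovia, a log2 fold change of -0.20 (SE 0.06, adjusted p 0.00367, edgeR), opposite in sign to the formulas. EFNA1, an ephrin, was also opposite (0.22 against -0.22) and called in both, though the call between the formulas was lost without Okbyeongpung-san 500 replicate 3 (adjusted p 0.0899) or Soyo-san 500 replicate 3 (0.0973). Whether and how much of either herb 500 µg/mL of formula held is not given in the sources used here. Levels with a herb and with a formula are thus not at matched amounts. MALAT1 stood at 262.6 ± 19.2 CPM with mint and 227.0 ± 15.0 CPM with Saposhnikovia (SD, n = 3 each), below the formula libraries at 500 µg/mL. Herb levels beside formula levels are therefore also a description.

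**Figure D4:**
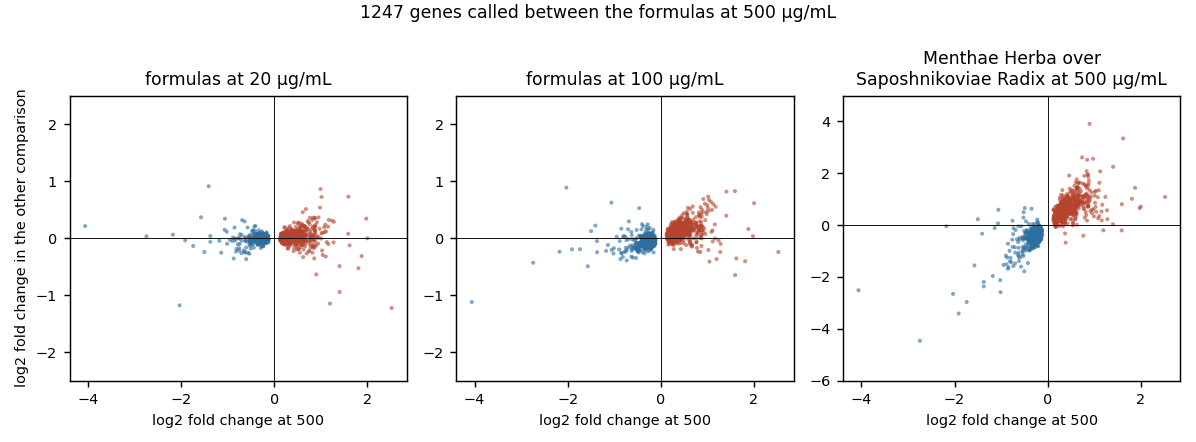
Log2 fold change of the 1247 genes called at 500 µg/mL (x) against their log2 fold change between the formulas at 20 and at 100 µg/mL and between Menthae Herba and Saposhnikoviae Radix at 500 µg/mL (y, wider scale in the last panel), 1 point a gene, red higher and blue lower with Soyo-san at 500. The same sign was seen for 57.2%, 81.6% and 97.8% of the genes in the 3 panels.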

How the data were processed

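RNA-seq was measured in 60 HepG2 libraries, of which the 6 given Soyo-san or Okbyeongpung-san at 500 µg/mL for 24 h carry the comparison. The authors deposited 1 table of expected counts per Ensembl gene (60675 genes). Per the submitters' processing notes, FastQC 0.11.9, Trim Galore 0.6.5, STAR 2.7.3a and RSEM 1.3.3 were used with the hg38 genome. The sources used here give neither the annotation release nor the strand setting. RSEM shares reads between similar genes, and 71.9% of the nonzero values were whole. Per the labels' protocols the library kit was directional and RNA had an integrity number above 7.

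Values were rounded, and genes were kept by edgeR's filterByExpr (minimum count 10), and 16644 passed. TMM factors scaled the libraries, and the model was the quasi-likelihood one of edgeR 4.0.16 (R 4.3.3, robust) over 57 libraries in 19 groups, with 38 residual degrees of freedom. The 3 Soshiho-tang libraries have no replicates and stayed out. P-values were adjusted by Benjamini-Hochberg over all genes tested, and genes under 0.05 were called. A standard error is the absolute log2 fold change over the square root of F, and CPM use TMM-adjusted totals. Totals were 20446542 to 32386486 counts, so 3 counts in the 18 formula libraries are 0.102 to 0.147 CPM. Data were also simulated for this comparison (16279 genes tested). The fit recovered 88.1% of genes changed 1.5-fold and 100% of those changed 2-fold, with 7 false calls. Changed genes were drawn only from those above a minimum expected count, with the spread taken from the fit itself. All groups otherwise shared the Okbyeongpung-san 500 means. Recovery of changes under 1.5-fold, or of genes at low levels, was not simulated.

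Named genes were the 15 of largest log2 fold change in each direction among those called with at least 5 CPM in either group and no overlap between the groups, up to 3 called members of each list, 13 genes in any case, and the 5 of largest interaction in each direction; other list members were named after their values were seen, as were the 6 genes called at 100 and the 4 called between 20 and 500. A few genes chosen this way are not reported here. The members and the 38 gene lists were chosen with earlier results of these data known, and no list was tested as a set. Symbols came from a gene name table that holds 56558 of the IDs, gene positions from GENCODE release 29 (GRCh38), and promoters from RefSeq (GRCh38.p14). Genes without a symbol held 0.07% of the counts. Same-numbered libraries of both formulas did not deviate together (correlations -0.082 to 0.071), so replicate numbers were not taken as pairs. Alternatives were RLE scaling, no filter, DESeq2 1.42.0, fewer libraries in the fit, a replicate block and leaving out each library.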

Additional observations from a re-analysis of the deposited data

Results flagged for a closer look

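The change from 20 to 500 µg/mL differed between the formulas, by the interaction contrast of the edgeR fit over all genes, for each of the following genes, which are the 5 of largest size in each direction. Each value is the log2 change with Soyo-san minus that with Okbyeongpung-san, with its standard error and adjusted p.

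HAMP had the largest value, -2.77 (SE 0.20, adjusted p 8.2e-14): it fell by 2.57 on the log2 scale with Soyo-san and stood at 0.21 with Okbyeongpung-san. The metallothioneins followed. MT1G was at -1.87 (SE 0.22, adjusted p 1.3e-07), from -2.29 with Soyo-san and -0.42 with Okbyeongpung-san. MT1F was at -1.60 (SE 0.21, adjusted p 9.1e-07), MT1E at -1.41 (SE 0.23, adjusted p 7.9e-05) and MT1X at -1.31 (SE 0.18, adjusted p 2.3e-06). None of the Okbyeongpung-san changes of these genes was called.

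In the other direction CYP1A1 was at 1.51 (SE 0.10, adjusted p 2e-16), with rises of 3.31 with Soyo-san and 1.79 with Okbyeongpung-san. B3GNT3 was at 1.04 (SE 0.19, adjusted p 0.00035), AQP3 at 1.00 (SE 0.19, adjusted p 0.0004), RBM47, an RNA-binding protein, at 0.98 (SE 0.15, adjusted p 1.2e-05) and the pseudogene CCT8P1 at 0.94 (SE 0.18, adjusted p 0.00065).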

How the results depend on the processing

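The count of 1247 genes at 500 µg/mL was 1095 to 1531 with RLE scaling, no filter, DESeq2, the 18 formula libraries alone or a replicate block (1289, and 1531 within the first number of the sample code), 2102 when the 6 libraries were fitted alone (1217 shared), and 865 to 953 without 1 library each. At 100 µg/mL the count of 6 was 27 with DESeq2, 228 with no filter, 3 with the 18 formula libraries, 15 with a replicate block, 33 with the replicate block set separately for each first code number, and 1 to 4 without 1 library each; CYP1A1 was called in 13 of 13 alternatives there. At 20 µg/mL the count of 0 was 1 with DESeq2, 74 with no filter and 1 with the 6 libraries fitted alone, and 0 without any 1 library. The interaction count of 392 was 358 to 560 over the other alternatives and 271 to 362 without 1 library each. The cause of these shifts was not tested. Of 1404 fits of the 108 named genes called at 500 µg/mL, over 13 alternatives, 1298 kept the direction and the call, 106 lost the call and 0 reversed; 80 genes kept both throughout. At this depth 3 counts are 0.102 to 0.147 CPM in the formula libraries, and whether depth limited calls at low levels was not tested.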
